A study of Mus musculus with 6 samples.

Results

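The genes described here are 9 proximal kinases and adaptors of the T cell receptor, Lck, Fyn, Zap70, Lat, Lcp2, Txk, Grap2, Vav1 and Ptpn22. They were found by their gene symbol in the platform annotation, which listed 19 probes for 8 of the 9 genes among the 45281 probes and 19057 named genes of the array. Lck, the Src family kinase that phosphorylates the receptor's CD3 chains, is listed for no probe in the annotation used here and was not analysed. Total RNA of mouse hybridomas, immortal lines from the fusion of lymphocytes with tumour cells, was measured on Illumina bead arrays. The 2 groups were 3 arrays of the IL-17-producing hybridoma S2 and 3 arrays of the IL-17-non-producing hybridoma DE3, and both lines were grown in RPMI medium with 10% fetal calf serum. Each group carried a single clone name, and the labels give no fusion partner, mouse strain, age or stimulation. Whether replicates came from separate cultures is not in the labels, and the p-values then reflect no more than the spread among these arrays, possibly a technical one.

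When the T cell receptor binds its ligand, Lck and the related kinase Fyn phosphorylate the CD3 and zeta chains, and Zap70 docks on the phosphorylated chains. Zap70 then phosphorylates the membrane adaptor Lat and the cytosolic adaptor Lcp2 (SLP-76), which Grap2 (Gads) joins to each other. Tec family kinases, of which Txk is one, and the exchange factor Vav1 act at this assembly, and the phosphatase Ptpn22 dephosphorylates the kinases at the start of the chain. These proteins set how strongly a T cell responds to its receptor.

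The members that passed the test went in both directions, by less than 2-fold. Zap70 and Vav1 were higher in the producing hybridoma, by 1.23-fold and 1.25-fold. Grap2, Ptpn22 and Fyn were lower, by 1.46-fold, 1.42-fold and 1.33-fold. Lat and Lcp2 did not pass the test, and the Txk probe was not above background on any array. Of the 7 members that could be tested, 5 passed in limma's moderated test, at a Benjamini-Hochberg adjusted threshold of 0.05, 2 higher and 3 lower, and none reached a 2-fold difference. Among all 9395 tested genes 36.7% passed, 18.1% higher and 18.6% lower, and 341 genes passed with a 2-fold difference or more. The median size of the differences that passed was 0.47 on the log2 scale over all genes, against 0.42 for the 5 members. With 7 members, chosen with earlier results of these data known, their share was not tested against that background.

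The arrays of the producing group were dimmer, with a mean signal of 399 to 482 against 505 to 559 in the non-producing group, and 36.9% to 37.4% of the probes were above background on them against 38.0% to 39.4%. Correlations across tested probes were 0.995 to 0.997 within a group and 0.977 to 0.981 between groups. The 6 arrays shared 1 chip, on which a group took neighbouring positions, so position and group cannot be told apart. Precision is limited by 3 arrays a group. Of 8 T cell markers, 6 were above background on at least 3 arrays (Cd3d, Cd3e, Cd3g, Cd247, Thy1 and Cd28) and 2 were not (Cd2 and Cd5). Their summed normalized signal was 31767 to 33937 in the producing group and 41387 to 44564 in the non-producing group, and 1 marker was higher and 4 were lower in the producing hybridoma. The summed signals of B cell markers (1 of 6 with a probe was above background, Vpreb1), myeloid markers (1 of 8, Lyz1), natural killer cell markers (0 of 5) and fibroblast markers (1 of 6, Pdgfrb) were 116 to 218 on every array. The B cell markers Cd79b, Ms4a1, Pax5, Blnk and Cd22 were above background on fewer than 3 arrays each, as were Lyz2, Csf1r, Itgam, Cd14, Adgre1, Fcer1g and Spi1 of the myeloid list. The sums differed in direction between lists, and their part in the members' differences was not tested. In bulk RNA, fewer cells of a type and less RNA per cell cannot be told apart.

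The promoters of the 5 members that passed are given so that those of the higher and the lower genes can be set side by side. Each runs from 250 bases before to 50 bases after a start site, comes from RefSeq on build GRCm38.p6 and lies on the + strand. They are Zap70 at chr1:36761548-36761847, Vav1 at chr17:57278850-57279149, Fyn at chr10:39369549-39369848, Grap2 at chr15:80623233-80623532 and Ptpn22 at chr3:103859545-103859844. Where several start sites were listed, 3 for Zap70 and 2 for Ptpn22, the one nearest the gene's 5′ end was taken, which for Ptpn22 lay 3220 bases inside the gene, and the 1 listed site of Grap2 lay 50886 bases inside. Capitals mark matches on either strand to 5 short motifs of factor families active in T cells or at many promoters, namely the RUNX motif TGTGGT, the ETS motif GGAAGT, the E box motif CAGGTG, the GATA motif AGATAA and the GC box motif GGGCGG.
Zap70: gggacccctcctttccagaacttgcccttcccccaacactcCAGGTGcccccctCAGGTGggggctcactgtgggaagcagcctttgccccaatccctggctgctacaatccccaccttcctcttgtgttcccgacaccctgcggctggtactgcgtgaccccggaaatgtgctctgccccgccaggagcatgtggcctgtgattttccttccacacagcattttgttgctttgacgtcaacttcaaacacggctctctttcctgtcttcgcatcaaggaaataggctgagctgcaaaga
Vav1: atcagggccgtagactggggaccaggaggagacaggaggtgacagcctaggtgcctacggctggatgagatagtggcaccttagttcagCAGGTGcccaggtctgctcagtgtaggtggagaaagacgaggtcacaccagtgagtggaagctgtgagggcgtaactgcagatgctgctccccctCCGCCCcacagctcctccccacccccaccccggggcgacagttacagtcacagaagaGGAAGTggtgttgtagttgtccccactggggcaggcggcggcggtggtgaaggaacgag
Fyn: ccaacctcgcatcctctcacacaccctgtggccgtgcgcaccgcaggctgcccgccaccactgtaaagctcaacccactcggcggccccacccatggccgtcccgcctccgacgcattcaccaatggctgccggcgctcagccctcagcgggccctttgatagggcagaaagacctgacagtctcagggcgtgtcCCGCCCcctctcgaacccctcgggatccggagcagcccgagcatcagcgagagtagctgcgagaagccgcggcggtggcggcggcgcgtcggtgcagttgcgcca
Grap2: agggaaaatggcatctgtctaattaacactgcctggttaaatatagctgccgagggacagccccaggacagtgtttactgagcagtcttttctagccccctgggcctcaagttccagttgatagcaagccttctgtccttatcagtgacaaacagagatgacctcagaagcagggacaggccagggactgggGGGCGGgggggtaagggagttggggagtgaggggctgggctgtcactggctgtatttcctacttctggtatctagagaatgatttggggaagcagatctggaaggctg
Ptpn22: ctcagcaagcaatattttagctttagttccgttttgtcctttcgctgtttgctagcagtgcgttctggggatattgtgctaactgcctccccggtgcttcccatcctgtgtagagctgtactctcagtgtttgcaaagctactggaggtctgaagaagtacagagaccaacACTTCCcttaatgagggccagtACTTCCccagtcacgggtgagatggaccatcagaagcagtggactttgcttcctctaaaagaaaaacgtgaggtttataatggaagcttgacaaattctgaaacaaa
No matches overlapped. The higher genes Zap70 and Vav1 both held the E box, with 2 matches in Zap70 and 1 in Vav1, and the lower genes held none. The ETS motif was found once in Vav1 and 2 times in Ptpn22, and the GC box once each in Vav1, Fyn and Grap2. RUNX and GATA motifs were in none of the 5 windows. Of 32851 promoters of this length, 20.2% hold the E box, 23.8% the ETS motif, 35.7% the GC box, 16.8% the RUNX motif and 11.2% the GATA motif. These matches describe the letters in 5 windows, and nothing about binding was measured.

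Among the kinases, Zap70 rose on all 3 of its probes. Its brightest probe read 11.66, 11.57 and 11.69 on the log2 scale on the non-producing arrays and 11.94, 11.94 and 11.95 on the producing arrays. The groups did not overlap, and the producing arrays lay within 0.01 (SD) of each other. The log2 difference of this probe was 0.30 ± 0.07 (SE, limma adjusted p = 0.0148). The other 2 probes differed by 0.31 (10.89 ± 0.06 against 10.57 ± 0.06) and 0.35 (9.28 ± 0.14 against 8.93 ± 0.06, SD, n = 3), and both passed (limma adjusted p = 0.0152 and 0.0203). The 3 probes therefore gave nearly the same difference from levels that were more than 2 log2 units apart. Without non-producing array 2 the brightest probe was at 0.27 and did not pass (limma adjusted p = 0.0553), nor did it with scaling to the median of all probes (0.044, limma adjusted p = 0.810).

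Fyn, the Src family kinase that acts beside Lck at the receptor, was lower in the producing hybridoma. Its probe read 8.57, 8.49 and 8.48 on the non-producing arrays and 8.23, 8.12 and 7.94 on the producing arrays. All 3 producing arrays were below all 3 non-producing ones. The log2 difference was -0.42 ± 0.09 (SE, limma adjusted p = 0.0101). This was the only one of 3 Fyn probes above background, and the other 2 read 4.23 to 4.35 and 4.74 to 4.88 over the 6 arrays, with detection p-values of at least 0.110. The value for Fyn therefore rests on 1 probe.

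Txk, a Tec family kinase of T cells also called Rlk, gave no measurable level. Its 1 probe read 4.44, 4.55 and 4.35 on the non-producing arrays and 4.45, 4.46 and 4.58 on the producing arrays, with detection p-values from 0.320 to 0.834. Both groups were at background, so no difference is given.

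Of the adaptors, Grap2 passed the test, and Lat and Lcp2 did not. Grap2, which bridges Lat and Lcp2, had the largest difference of the members, and its brightest probe read 8.06, 8.40 and 8.27 on the non-producing arrays against 7.67, 7.56 and 7.86 on the producing arrays. The second probe read 7.65, 7.67 and 7.67 against 7.44, 7.13 and 7.20. On both probes the groups were apart, with non-producing array 1 and producing array 3 nearest each other on the first. The log2 differences were -0.55 ± 0.11 and -0.41 ± 0.10 (SE, limma adjusted p = 0.00775 and 0.0132). The remaining Grap2 probe was at background on every array (4.38 to 4.65).

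Lat, the membrane scaffold that Zap70 phosphorylates, was bright and nearly equal in both hybridomas. Its brightest probe read 12.47, 12.49 and 12.48 on the non-producing arrays and 12.39, 12.49 and 12.37 on the producing arrays. The groups overlapped, and the difference of -0.06 had a 95% interval from -0.23 to 0.11 on the log2 scale (limma adjusted p = 0.551). The second probe, at a lower level, gave -0.10 with an interval from -0.49 to 0.28. The 95% intervals of the tested Grap2 probes ran from -0.81 to -0.28 and from -0.63 to -0.19. That of the brightest Grap2 probe did not overlap that of the brightest Lat probe. The other Grap2 and Lat intervals overlapped each other, and the difference between the genes was not tested.

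Lcp2, the cytosolic scaffold SLP-76, was read by 3 probes, none of which passed. Its brightest probe read 8.15, 7.72 and 7.77 on the non-producing arrays and 7.45, 7.84 and 7.56 on the producing arrays, a difference of -0.26 with a 95% interval from -0.59 to 0.07 (limma adjusted p = 0.198). A probe annotated to a cDNA clone record, while the other 2 are annotated to the RefSeq transcript, read 6.48, 6.13 and 6.10 against 6.68, 6.46 and 6.59, a difference of 0.34 (limma adjusted p = 0.0584). The third probe was at -0.10 (adjusted p = 0.700). Set against each other array by array, the first 2 probes differed by -0.60 between the groups without overlap, which in an exact two-sided permutation test gives p = 0.1, the smallest that 3 against 3 arrays allow, and 0.3 after Benjamini-Hochberg over 9 probe pairs of the members. No direction is given for Lcp2.

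Vav1, the exchange factor that activates Rac after receptor engagement, was read by 1 probe, at 11.66, 11.67 and 11.71 on the non-producing arrays and 11.999, 11.978 and 12.025 on the producing arrays. All 3 producing arrays were above all 3 non-producing ones, with a spread of 0.02 and 0.03 (SD, n = 3) within the groups. The log2 difference was 0.32 ± 0.07 (SE, limma adjusted p = 0.00934). It was 0.066 with scaling to the median of all probes and 0.019 with chromosome medians removed, and passed in neither (limma adjusted p = 0.692 and 0.867).

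Ptpn22, the phosphatase that counteracts the first kinases, was lower on its bright probe. That probe read 10.53, 10.36 and 10.28 on the non-producing arrays and 9.90, 9.89 and 9.85 on the producing arrays. The groups did not overlap, and the producing arrays were the less variable ones (SD 0.03 against 0.13, n = 3). The log2 difference was -0.51 ± 0.09 (SE, limma adjusted p = 0.00300). A second probe, annotated to a cDNA clone record, was above background on 1 non-producing and 2 producing arrays. It read 4.63 to 5.25 against 5.02 to 5.49 and did not pass (0.31, adjusted p = 0.213), and the third probe was at background. Array by array, the bright and the second probe differed by -0.82 between the groups, without overlap. The exact two-sided permutation test gave p = 0.1, the smallest that 3 against 3 arrays allow, and 0.3 after Benjamini-Hochberg over 9 probe pairs. The lower value of Ptpn22 therefore rests on its bright probe. Another setting took, on each array, the median of a gene's tested probes, which for 2 probes is their mean. Ptpn22 was then at -0.10 and did not pass (limma adjusted p = 0.563).

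**Figure D1:**
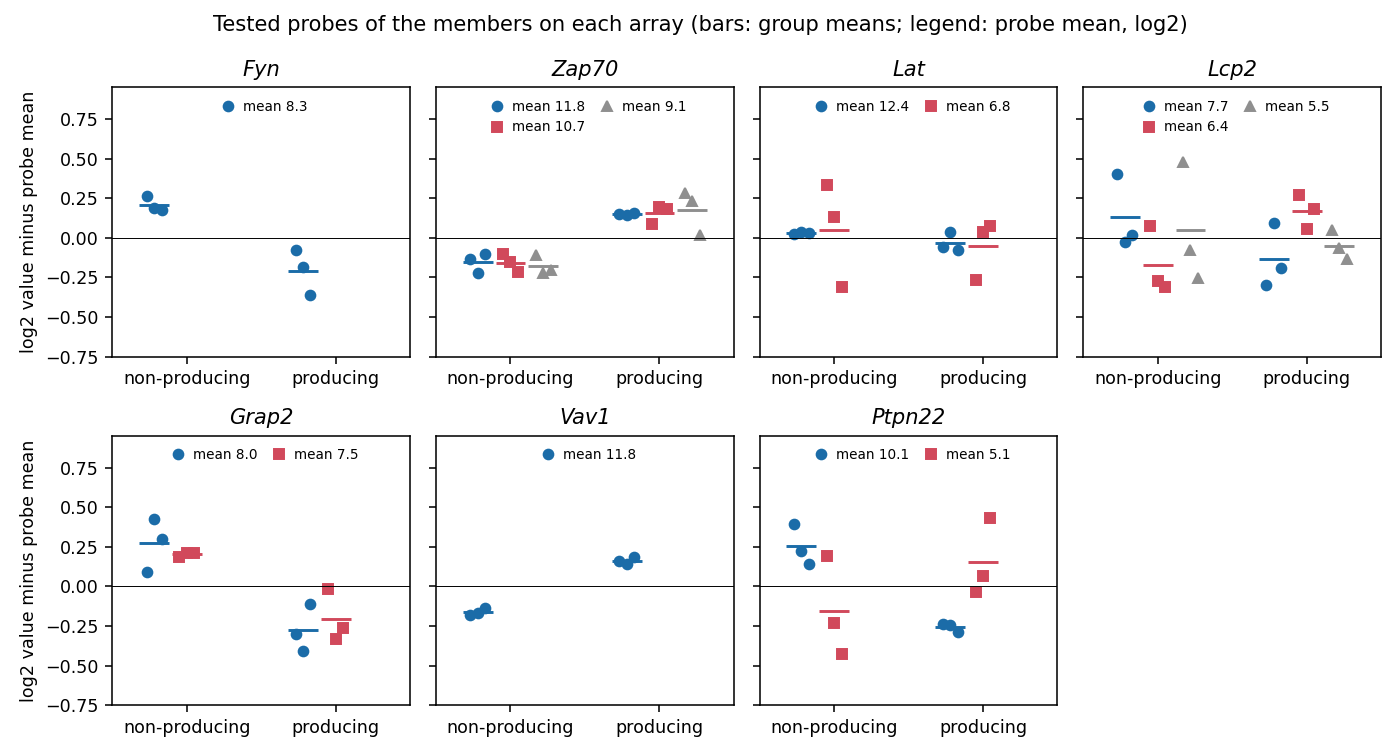
Log2 value of each tested probe of the 7 tested members on each of the 6 arrays, as the deviation from that probe's mean over all arrays. Points are arrays, short bars are group means, and colours and shapes separate the probes of a gene with their mean log2 value in the legend. The 3 probes of Zap70 move together, and for the single probes of Fyn and Vav1 the groups are apart. Probes of Lcp2 and of Ptpn22 have differences of both signs. An exact permutation test of 3 against 3 arrays could not call these contrasts (smallest possible p = 0.1). The second Ptpn22 probe was above background on 1 non-producing and 2 producing arrays.

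Of the 14 tested member probes, 8 passed, where 33.9% of all tested probes did. The brightest probe separated the groups without overlap in 5 of 7 members, and in 51.3% of all tested genes. By the size of their difference Grap2 and Ptpn22 lay at percentiles 86.5 and 84.4 of all tested genes, Fyn at 77.4, Vav1 at 67.3, Zap70 at 64.4, Lcp2 at 58.6 and Lat at 17.1.

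The signals as deposited, before background correction and normalization, were lower on the producing arrays over all tested genes (median ratio 0.852). For the 3 lower genes the groups were apart there too. So were they on the brightest probes of Lat and Lcp2, which did not pass (ratios of the means 0.780 and 0.701). How many of all tested genes were apart in these signals was not counted, so this is not read as a trait of the members. Ptpn22 read 1850, 1456 and 1351 on the non-producing arrays and 917, 975 and 745 on the producing arrays, a ratio of the means of 0.566. Grap2 was at 369, 413 and 371 against 231, 228 and 223 (ratio 0.591) and Fyn at 510, 436 and 424 against 316, 314 and 233 (ratio 0.631). For the 2 higher genes the deposited signals overlapped. Zap70 read 3916, 3287 and 3516 against 3626, 3907 and 3069 (ratio 0.989), and Vav1 read 3916, 3543 and 3561 against 3773, 4033 and 3266 (ratio 1.00). The median ratio over the 9395 tested genes was 0.852, so Zap70 and Vav1 were higher relative to the other genes of the same arrays. The deposited signals still hold background, which draws the ratios of dim probes toward 1. When arrays were scaled to the median of all probes, most of which are at background, the median of all tested genes was itself at -0.23, and Zap70 and Vav1 were at 0.044 and 0.066 and did not pass (limma adjusted p = 0.810 and 0.692). Relative to that median they were 0.28 and 0.30 higher. Under that scaling 0 members were higher and 4 lower, and over all genes 12.5% of the calls were higher, against 49.4% with quantile normalization.

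**Figure D2:**
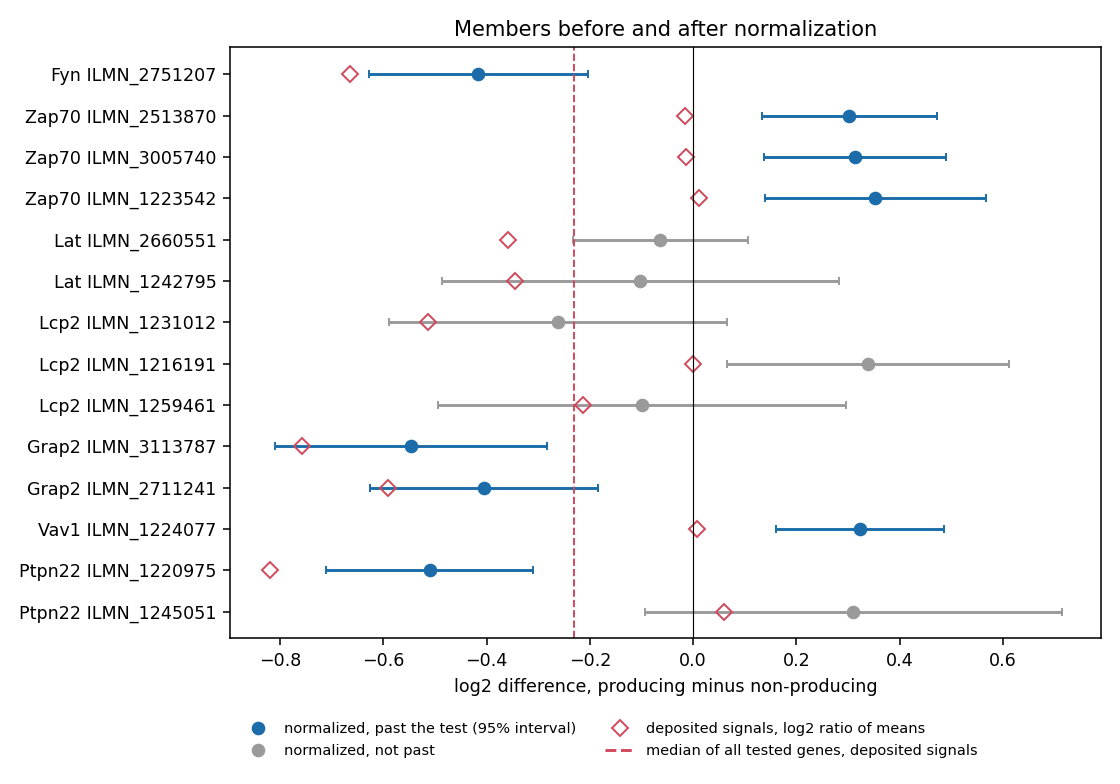
Log2 difference, producing minus non-producing, of the 14 tested member probes. Circles are normalized values with their 95% interval, filled blue where the probe passed the test and grey where it did not, open diamonds are the log2 ratios of the mean deposited signals, and the dashed line is the median of those ratios over all tested genes. The diamonds of Zap70 and Vav1 lie near 0 and right of the dashed line, and those of Fyn, Grap2 and the bright Ptpn22 probe lie left of it. So do those of Lat and of the brightest Lcp2 probe, which did not pass.

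The members lie on different chromosomes, and some of these differed as a whole between the hybridomas. Vav1 lies on chromosome 17, where 243 of 481 tested genes (50.5%) were higher and 22 (4.57%) lower, with a median log2 difference of 0.30. The difference of Vav1, 0.32, was close to that median. Among the 5 tested genes on each side of Vav1, 4 were higher and 0 lower, with a median of 0.20. The higher ones were Tnfsf14 (1.07), Gpr108 (0.47), Man2a1 (0.42) and Vapa (0.42). With each chromosome's median removed, the difference of Vav1 was 0.02, not past the test (limma adjusted p = 0.867). The difference of Vav1 and that of its chromosome cannot be told apart from these values.

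Ptpn22 lies on chromosome 3, whose genes were on balance lower, with 176 of 448 (39.3%) lower, 34 higher and a median of -0.19. With that median removed Ptpn22 was at -0.32 and passed (limma adjusted p = 0.0265). Its 10 neighbours had a median of 0.02, with 1 higher and 2 lower. Zap70 lies on chromosome 1, where 116 of 479 genes (24.2%) were lower and 53 (11.1%) higher, with a median of -0.05. Over all tested genes 18.6% were lower and 18.1% higher. Chromosomes 7, 10, 11 and 15 also had more lower than higher genes. With the median of chromosome 1 removed, Zap70 was at 0.36 (limma adjusted p = 0.00854). The neighbours of Zap70 went both ways, from -0.55 to 0.90. Fyn on chromosome 10 (median 0.00) and Grap2 on chromosome 15 (median -0.09) were at -0.42 and -0.46 and passed after the same step (limma adjusted p = 0.0116 and 0.0192). The neighbour next to Fyn, Traf3ip2, which encodes the IL-17 receptor adaptor Act1, was lower by a similar amount (-0.43, limma adjusted p = 0.00846), and the neighbour on the other side, Tube1, was higher (0.42). Lcp2 on chromosome 11 had 10 neighbours of which 0 passed (median -0.15), and Lat on chromosome 7 had 2 higher and 4 lower.

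**Figure D3:**
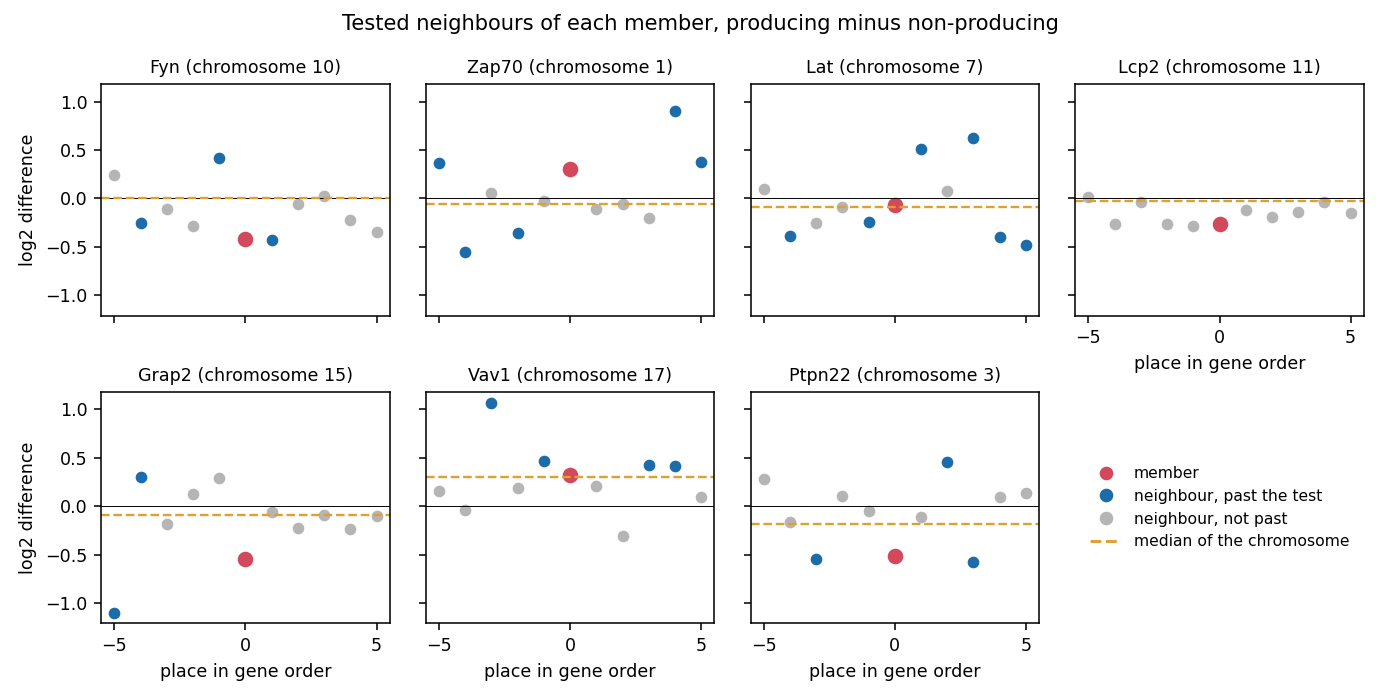
Log2 difference, producing minus non-producing, of each tested member (red, at 0) and of the 5 tested genes on each side of it in the gene order of the GRCm38.p6 assembly, with neighbours that passed the test in blue and others in grey. The dashed line is the median of all tested genes of that chromosome, which lies at 0.30 for Vav1 and at -0.19 for Ptpn22.

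The genes whose values over the 6 arrays were most like each called member were found by the Euclidean distance of log2 values centred on their own mean, among 9118 named genes. Nearest to Zap70 were Rbfa and Txndc5, a protein disulfide isomerase of the endoplasmic reticulum (distances 0.0458 and 0.0465). Nearest to Vav1 were Acadvl, an acyl-CoA dehydrogenase of mitochondria, and Fam126a (0.0279 and 0.0328). Nearest to Fyn were Kiz and Josd1 (0.0724 and 0.0984), to Grap2 St7 and Vma21 (0.113 and 0.114), and to Ptpn22 Gde1 and the zinc finger gene Zfp12 (0.0815 and 0.0861). None of these 10 genes belongs to the lists of the pathway used here. Those lists hold only 50 tested genes, a small part of the 9118, so this says little about the members.

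The other genes of the pathway were taken from 6 lists with 72 genes, of which 67 had a probe and 50 could be tested. Of the 50, 10 were higher, 13 lower and 27 did not pass, a share of 46.0% past the test against 36.7% of all genes. Their median was -0.12 on the log2 scale, against 0.00 for all genes. Of the 50, 3 passed with a difference of 2-fold or more, Cd6, Trat1 and Sla, as did 341 of all 9395 tested genes. Each of these 3 pathway genes moved further than any member.

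Of the receptor chains and coreceptors, 8 of 11 genes were tested, and 3 were higher, 3 lower and 2 did not pass. Cd6, a surface receptor that modulates receptor signalling, rose by 3.16 on the log2 scale. Cd8b1, the beta chain of the CD8 coreceptor that brings Lck to the receptor, rose by 0.33. Cd8a, the alpha chain, was not above background on 3 or more arrays and was not tested. Cd247, the zeta chain on which Zap70 docks, was at 0.54 on its brightest probe, but its other 2 probes, at 0.06 and -0.25, did not pass. Cd3d (-0.996), Cd3g (-0.67) and the costimulatory receptor Cd28 (-0.75) fell, while Cd3e, at -0.04, did not pass. Cd28 was near background in the producing group, at a mean of 5.13 and above background on 2 of 3 arrays. Cd3d read 12.17, 12.48 and 12.36 on the non-producing arrays and 11.25, 11.32 and 11.46 on the producing arrays, with no overlap. Cd247 passed in 12 of 16 other settings, and not when non-producing array 1 was omitted.

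Of the regulators of the receptor kinases, 9 were tested, and 1 passed (11.1%, against 36.7% of all tested genes, a difference that was not tested). Ptpn7, a phosphatase of MAP kinases in lymphocytes, fell (-0.44). Near the threshold, Ptpn2, a phosphatase of Janus and Src family kinases, was at -0.26 (limma adjusted p = 0.0525) and Ubash3a, a negative regulator of receptor signalling, at 0.39 (limma adjusted p = 0.0603). Both of these passed in 6 of 16 other settings, and they were picked after their values were seen. Csk, the kinase that inhibits Lck and Fyn, was at 0.01 (13.04 ± 0.01 against 13.03 ± 0.04, SD, n = 3), and the phosphatase CD45, encoded by Ptprc, was at -0.17 (7.77 ± 0.12 against 7.94 ± 0.12). Ptpn7 passed in 10 of 16 other settings, and lost its call when producing array 1, non-producing array 1 or non-producing array 2 was omitted. Of the other Src and Syk family kinases only Src was tested (-0.21, not past), and Syk, the relative of Zap70, was not above background on 3 or more arrays. Of the other Tec family kinases Tec fell (-0.60) and Bmx (0.05) did not pass.

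Of the 18 other adaptors tested, 3 were higher, 6 lower and 9 did not pass. Trat1, a transmembrane adaptor associated with the receptor complex, fell by 2.34 on the log2 scale. It read 10.85, 11.11 and 10.98 on the non-producing arrays and 8.67, 8.56 and 8.69 on the producing arrays, and its second probe differed by -2.32. Sla, which encodes the adaptor SLAP that lowers receptor levels, rose by 1.63, from 9.90, 9.83 and 9.77 to 11.57, 11.41 and 11.40, and its other 2 probes by 1.37 and 1.19. Grap, a relative of Grap2 and Grb2, rose by 0.69 while Grap2 fell, and Grb2 itself was at -0.01 and did not pass. Themis, an adaptor of thymocyte selection that binds Grb2 (-0.63), and Sh3bp2, an adaptor that binds Syk family kinases (-0.45), fell. Sit1, a transmembrane adaptor that inhibits receptor signalling, was at 0.40 with its second probe at 0.36 and not past. Sit1 passed in 8 of 16 other settings, and its adjusted p was above the threshold when non-producing array 1, non-producing array 2 or any producing array was omitted.

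Of the enzymes and other factors that act at Lat, 4 of 12 tested were higher, 2 lower and 6 did not pass. Vav2, the relative of Vav1, rose by 0.65, while Vav3, at -0.19, did not pass. Rasgrp1, the Ras exchange factor activated by diacylglycerol, rose by 0.51 with its second probe at 0.64, and Dgka, the kinase that removes diacylglycerol, rose by 0.31 with its other probes at 0.29 and 0.46 past the test too. Hcls1, an actin regulator of lymphocytes, rose by 0.47. Sos2, another Ras exchange factor (-0.50), and Bcl10, which carries the signal to NF-κB (-0.33), fell. Hcls1 and Bcl10 did not pass with chromosome medians removed, and Bcl10 did not without non-producing array 3 or producing array 3. Under scaling to the median of all probes 4 of the 50 pathway genes were higher and 25 lower, and Cd8b1, Cd247, Sit1, Dgka, Rasgrp1 and Hcls1 did not pass there.

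**Figure D4:**
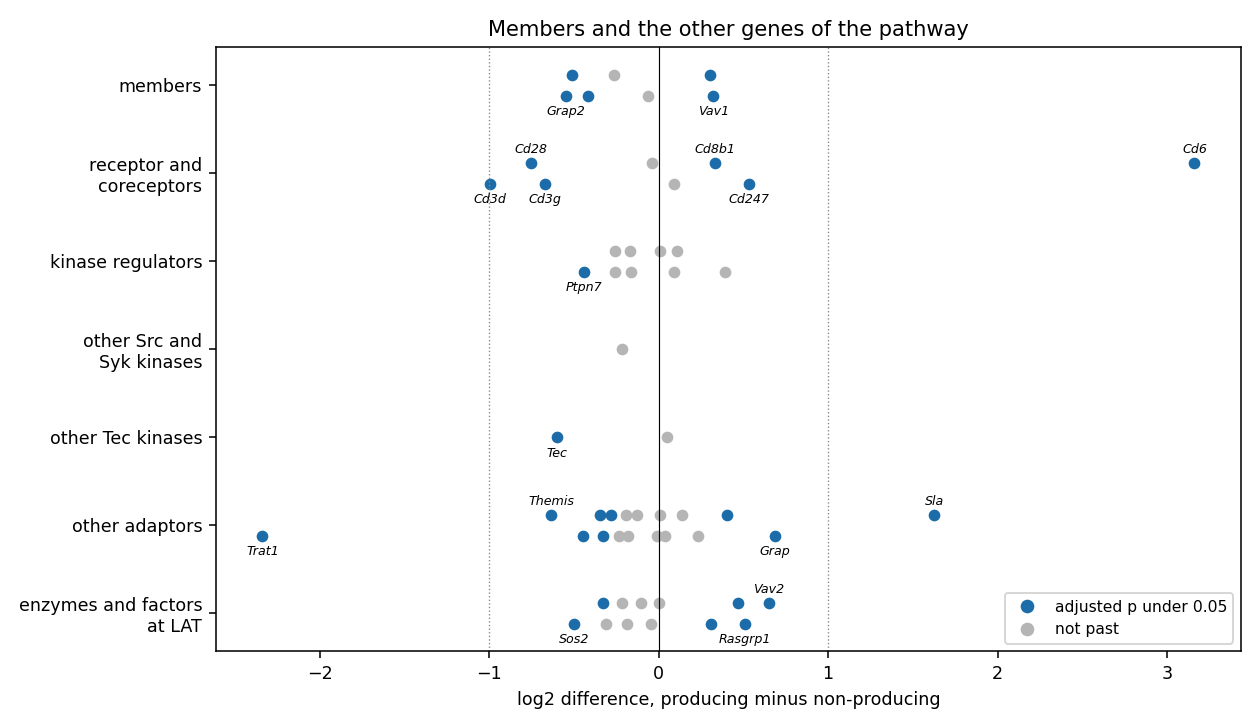
Log2 difference, producing minus non-producing, of the 7 tested members and of the 50 other tested genes of the pathway, by list. Each point is a gene read from its brightest tested probe, blue where it passed an adjusted p of 0.05, and the dotted lines mark a 2-fold difference. The members lie between -0.55 and 0.32, inside the span of the other adaptors, which runs from -2.34 for Trat1 to 1.63 for Sla.

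Over 10 other settings and 6 fits that each left out 1 array, Fyn and Grap2 passed in all 16. Fyn ranged from -0.70 to -0.34 and Grap2 from -0.83 to -0.45. Ptpn22, Vav1 and Zap70 passed when any 1 array was left out, except Zap70 without non-producing array 2.

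**Figure D5:**
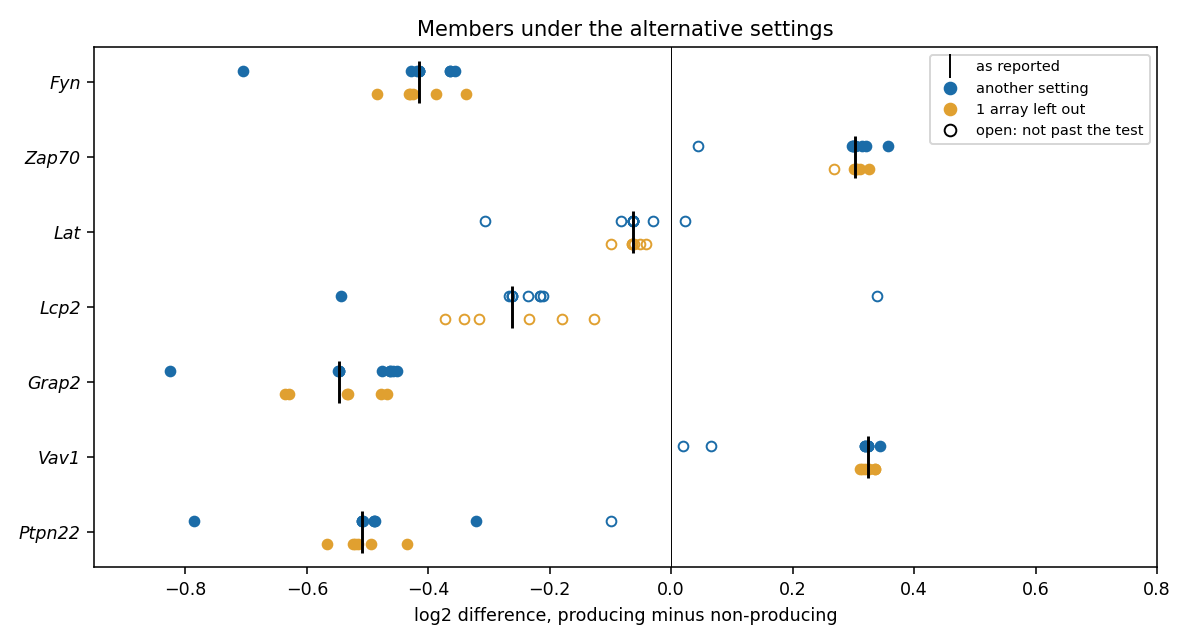
Log2 difference of each tested member under the settings of the closing section (blue) and with 1 array left out (orange), with the reported value as a black line. Filled points passed an adjusted p of 0.05 and open points did not. Fyn and Grap2 have only filled points, and the open points of Vav1 near 0 are scaling to the median of all probes and removal of chromosome medians.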

How the data were processed

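Expression was measured in 6 samples on Illumina bead arrays. The authors deposited, per the file headers, a table without normalization that holds the average bead signal intensity of each probe. No signal is near or below 0 (lowest 35.5), so the intensity was read as not background-subtracted. The deposited detection score is a fraction that is named a p-value in the header but rises with signal, so 1 minus this score was used as the detection p. The authors' second table holds processed intensity. Its sorted columns lie within 1% of the mean sorted signal for all probes, so it was read as quantile normalized without background subtraction. Of the columns, 0 matched no sample. Scanner settings are not stated in the labels.

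The signals were processed with limma 3.58.1 in R 4.3.3 by neqc (offset 16, negative controls estimated through the detection p), which gives log2 values. Testing was restricted to the 17445 probes with a detection p under 0.05 on 3 or more arrays. The groups were contrasted by lmFit and eBayes (two-sided, no covariates), with Benjamini-Hochberg adjustment over these probes. The brightest tested probe stood for its gene. Names came from the platform annotation (34885 probes with 1 symbol, 18 with several, 10378 not listed), updated through gene identifiers of GRCm38.p6, which also gave gene order. Named genes were the members, the pathway genes past the threshold (at most 6 per list, by size), and the 2 genes nearest each called member. Other genes with values were picked after their values were seen. The fit was tested on simulated data. The members and lists were chosen with earlier results of these data known. Alternatives covered background correction, scaling, the processed table, the detection filter, the replicate block, chromosome medians, the probe of a gene and each array left out.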

Additional observations from a re-analysis of the deposited data

How the results depend on the processing

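Each setting called 4 or 5 members, of 7 tested, or of 8 tested with no filter on detection. Scaling to the median of all probes kept 3 of the 5 calls (Fyn, Grap2 and Ptpn22). It took Zap70 to 0.0442 and Vav1 to 0.0662, neither past the test, and Lcp2 to -0.54, past it (limma adjusted p = 0.0229). That scaling put the median of all tested genes at -0.23, and the part of this shift in the changed calls was not tested. Scaling to the median of the tested probes, chosen after seeing the data, kept 5 calls (2 higher), with Zap70 at 0.32 and Vav1 at 0.34. Removing chromosome medians took Vav1 to 0.0190, not past, and Lat to 0.0222, a change of sign in a value that passed in neither. Another setting took, on each array, the median log2 level of a gene's tested probes, which for 2 probes is their mean. It put Ptpn22, with 2 tested probes, at -0.10, not past. It put Lcp2 at 0.34, the opposite sign to its brightest probe, not past (limma adjusted p = 0.0562). For Lcp2 this is the value of its probe of middle level, the cDNA clone probe. It is not a median of the 3 probes' differences, which were -0.26, 0.34 and -0.10. Same-numbered arrays of the groups deviated from their group means with correlations of -0.04, -0.16 and 0.09, so the numbers were not taken as pairs, and not every array correlated best with its own number. With the replicate block, 5 members passed (Zap70 with limma adjusted p = 0.0406), 22 pathway genes and 3019 of all genes, and it changed no call of a member. Leaving out 1 array gave 4 to 5 members, 18 to 21 pathway genes and 2658 to 3016 genes past the test. In those fits Fyn was at -0.48 to -0.34, Zap70 at 0.27 to 0.33, Lat at -0.10 to -0.04, Lcp2 at -0.37 to -0.13, Grap2 at -0.64 to -0.47, Vav1 at 0.31 to 0.34 and Ptpn22 at -0.57 to -0.43. Over all other settings, 18 to 29 pathway genes and 2887 to 3874 of all genes passed. Signal over background limits Txk, 2 probes of Fyn and 1 probe each of Grap2 and Ptpn22, which were above background on no array and give no difference.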

Other observations

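In 5 genes of the pathway whose brightest probe did not pass, another probe did. Sla2, an adaptor related to Sla, was at 0.01 on its brightest probe and at 0.66 on the other (limma adjusted p = 0.000866). Itpkb, an inositol trisphosphate kinase, was at 0.00, -0.11 and -0.44, the last past the test (limma adjusted p = 0.00799). Fyb, the adaptor ADAP that binds Lcp2, was at -0.13 on its brightest probe and at 0.27 on the other (limma adjusted p = 0.0251). The remaining pairs had 1 sign, with Skap1, the partner of ADAP, at -0.18 and -0.29 (adjusted p = 0.0165 for the second) and Dok1, an inhibitory adaptor, at 0.14 and 0.29 (adjusted p = 0.0285 for the second). These genes were picked after their values were seen, and the differences between their probes were not tested.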
